A study of Piaractus mesopotamicus with 9 samples.

Results

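Myotubes of pacu (Piaractus mesopotamicus), a fast-growing South American freshwater fish, were deprived of amino acids and then either left without them or given 1 of 2 anabolic stimuli, and the libraries of both stimuli are set here against the deprived ones. The genes described are those for which all 6 treated libraries lay beyond all 3 libraries of the deprived control, on the same side. Of 13162 gene names tested, 1555 (11.8%) met that rule, 793 (6.02%) above the control and 762 (5.79%) below it. The cells came from fast-twitch muscle of juvenile fish, with the tissue of several fish pooled in each culture, and fused to myotubes in culture, so they are a mixed primary preparation and not a line. The cells of all 9 libraries were first kept for 12 h in medium free of amino acids. The control (CTR, 3 libraries) stayed in that medium for a further 24 h, which makes the 36 h that its label gives, the AA group (3 libraries) received medium with amino acids for 24 h, and the IGF1 group (3 libraries) received the amino acid-free medium with recombinant sea bream IGF1 for 24 h. The treatment field of the AA and IGF1 labels states 12 h where the protocol states 24 h, and the protocol is followed here. The libraries of a group are described as 3 independent cell cultures, and whether equal numbers across groups mark a shared culture is not stated. The AA medium was another formulation than that of CTR and IGF1, so the presence of amino acids and any other change of medium cannot be told apart.

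Insulin-like growth factor 1 binds its receptor, acts through insulin receptor substrates and the PI3K-AKT kinases, and thereby restrains FoxO transcription factors, which drive genes of muscle protein breakdown. Amino acids act on growth through the mTOR complex at the lysosome, and their lack is read by the kinase GCN2 and the transcription factor ATF4. The 23 gene lists below cover both routes and many other functions. They were written with earlier results of these data known. A list's share beside that of all genes is therefore a description and carries no test. The roles given for genes are those known from mammals unless stated otherwise.

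The members were chosen by their levels, so the lack of overlap with CTR is a description of them and carries no test. A quasi-likelihood F test of edgeR on the raw counts of all 9 libraries compared the mean of AA and IGF1 with CTR, and a gene was called when its Benjamini-Hochberg adjusted p over 35575 contigs was 0.05 or less and its fold-change 2 or more. That test called 281 genes higher (2.13%) and 224 lower (1.7%) of the 13162, each gene read from its most abundant contig (3.84% either way), and 560 contigs higher (1.57%) and 652 lower (1.83%). Of the members, 183 were called higher (1.39% of all genes) and 175 lower (1.33%), together 2.72%. Of the 1197 members that were not called, 518 passed the adjusted p but moved less than 2-fold, and 679 did not pass it. Another 147 called genes had at least 1 treated library that did not lie beyond all CTR libraries on the side of the call. Library totals ran from 1366043 to 53525876 counts, AA replicate 3 was the shallowest with 15.1% of the tested contigs at 0, and 81 of the 175 called falls had fewer than 5 raw counts in it. With each library left out in turn, 184 of the 358 called members (51.4%) were called in each of the 9 fits, and the removal of CTR replicate 3 cost most calls (126), followed by CTR replicate 2 (102). Log2 fold-changes below are given ± their standard error from this fit, and group means ± SD (n = 3). Without CTR replicate 3 the test called 167 genes higher and 145 lower, and without CTR replicate 2 it called 171 higher. With AA and IGF1 as 1 treated group, whose spread then holds the difference between them, 130 genes were called higher and 113 lower.

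**Figure D1:**
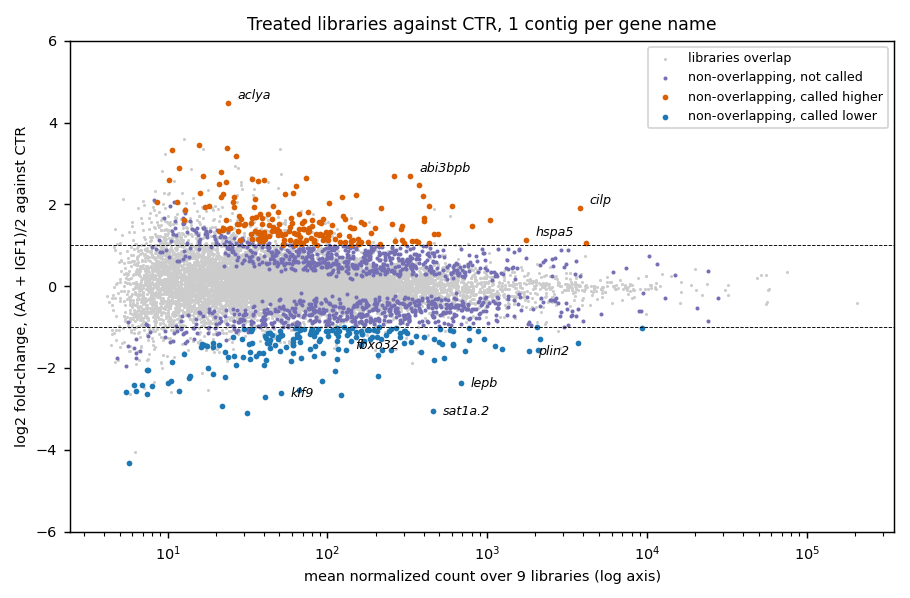
Log2 fold-change of both treatments against CTR (vertical axis) over the mean normalized count of the 9 libraries (horizontal log axis), 1 point per gene name; dashed lines mark 2-fold. Orange and blue points are the 183 called rises and the 175 called falls among the genes whose treated and CTR libraries do not overlap, and purple points are the 1197 such genes that were not called.

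Myogenic genes of the labelled cell type were present, but in every group the muscle marker sum lay far below the fibroblast marker sum. The share of each cell type was not tested. The normalized count of myog, the transcription factor of myoblast differentiation, was 274, 209 and 322 in CTR, 432, 568 and 738 in AA and 527, 416 and 462 in IGF1. All treated libraries lay above CTR, and the fold-change was below 2 (log2 fold-change 0.93 ± 0.17, adjusted p = 0.00122), so myog was a member that was not called. The summed normalized count of 14 skeletal muscle marker genes was 4687 to 5083 in CTR, 6883 to 10489 in AA and 4212 to 4422 in IGF1. Most of the sum in CTR came from the actin genes actc1a (2778, 3336 and 2950) and ACTA1 (1243, 1153 and 1261). Their contigs and that of the smooth muscle marker acta2 are isoforms of the same assembled gene, so the muscle sum is not specific to myotubes. Of the 14 genes, 13 had a log2 fold-change above 0 for the mean of both treatments. The exception was ACTA1, which lay below CTR without overlap (log2 fold-change −0.40, adjusted p = 0.0250). It was 897, 1141 and 1040.5 in AA and 793, 889 and 844 in IGF1. For actc1a every AA library (4277, 5443 and 6299) lay above CTR and every IGF1 library (2202, 2516.5 and 2443) below it. The list's median was 1.86 in AA and 0.42 in IGF1. The sum of 9 fibroblast marker genes was 239480 to 247350 in IGF1 against 159600 to 171820 in CTR and 159530 to 171820 in AA. Most of it came from type I collagen, in CTR col1a1a (45388, 42255 and 45497), col1a1b (43709, 41685 and 44283) and col1a2 (63050, 59289 and 65623). The contigs of col1a1a and col1a1b are isoforms of the same assembled gene. In IGF1 fbln1 lay below CTR and lum overlapped it, while the other fibroblast markers lay above CTR in every library. The sum of 5 smooth muscle and pericyte genes was 8802 to 9584 in CTR, 5484 to 6229 in AA and 5352 to 6230 in IGF1. The sum of 6 adipocyte genes was 1709 to 2643 in CTR, 879 to 1116 in AA and 726 to 1134 in IGF1. Most of it was fabp11a, with 1514, 2450 and 1869 in CTR. Of the 6 genes, fabp11a lay below CTR without overlap and lpl above, and 2 had a log2 fold-change above 0. By symbol, 1 of 10 listed markers of leukocytes (PTPRC, which the list holds under both its symbols), 4 of 9 of endothelium, 1 of 8 of nerve and glia, 2 of 6 of epidermis and 0 of 6 of erythrocytes were among the names tested, which says nothing of the level of genes under other names. The smooth muscle sum was lower in all treated libraries than in all CTR libraries, as was the adipocyte sum, which follows fabp11a. A smaller number of such cells and less RNA of these genes per cell cannot be told apart in bulk libraries.

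Single genes of the insulin-like growth factor route and of muscle protein breakdown were among the called falls, whereas the lists of these routes had medians near 0. The normalized count of fbxo32, which encodes the muscle ubiquitin ligase atrogin-1, was 243, 239 and 226 in CTR, 95.2, 67.6 and 42.2 in AA and 99.2, 74.1 and 83.1 in IGF1. The highest treated library (99.2) stood under the lowest CTR library (226), the AA and IGF1 values overlapped each other, and the fold-change was called (log2 fold-change −1.57 ± 0.19, adjusted p = 2.97e-05). Transcription of igfbp1a, a binding protein that holds IGFs away from their receptor, was 571, 810.3 and 692 in CTR, 220.1, 208 and 183 in AA and 177, 308 and 279.8 in IGF1. It was called lower in the treated libraries (log2 fold-change −1.61 ± 0.16, adjusted p = 2.94e-06), by log2 fold-changes of −1.75 in AA and −1.46 in IGF1. The insulin receptor substrates irs2a (−1.32, adjusted p = 0.00751) and irs2b (−1.09, adjusted p = 0.00328) were called lower too, while igfbp5a, the binding protein linked with muscle differentiation, was called higher (log2 fold-change 1.35 ± 0.32, adjusted p = 0.00874), from 22.6 ± 3.80 in CTR to 58.3 ± 14 in AA and 54.2 ± 19.6 in IGF1. Among the fits without 1 library, the call failed for igfbp5a without CTR replicate 2 (log2 fold-change 1.23, adjusted p = 0.0638) and without CTR replicate 3 (log2 fold-change 1.43, adjusted p = 0.0521), irs2a without CTR replicate 3 (log2 fold-change −1.21, adjusted p = 0.0836) and irs2b without CTR replicate 3 (log2 fold-change −0.86, adjusted p = 0.0791) and without IGF1 replicate 1 (log2 fold-change −0.98, adjusted p = 0.00891). For irs2a it was also lost with AA and IGF1 as 1 treated group (adjusted p = 0.0614). In AA alone irs2a did not pass the adjusted p of the edgeR fit (log2 fold-change −0.85, adjusted p = 0.161). The ligand gene igf2b and the transcription factor foxo1a were members below CTR that fell by less than 2-fold (log2 fold-change −0.86 ± 0.18, adjusted p = 0.00446 for igf2b and log2 fold-change −0.87 ± 0.18, adjusted p = 0.00312 for foxo1a).

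Over the FoxO and atrophy list, 1 of 19 genes found was a called member below CTR, against 1.33% of all genes. Without overlap, 5 lay below (5.79% of all genes did) and 2 above CTR (6.02%). The median log2 fold-change of that list was −0.08, against 0.03 over all genes. Beside fbxo32 and foxo1a, the members below CTR were cdkn1ba, an inhibitor of cyclin-dependent kinases (log2 fold-change −0.85 ± 0.16, adjusted p = 0.00220), fbxo25 (log2 fold-change −0.71 ± 0.18, adjusted p = 0.0148) and fbxo30a (log2 fold-change −0.58 ± 0.26, adjusted p = 0.183), both F-box proteins, of which fbxo30a did not pass the test. In the list of IGF and PI3K signalling genes, 3 of 35 were called members below CTR (1.33% of all genes were) and 1 above (1.39%), with a median of −0.16.

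Both leptin genes fell in both treatments. Leptin is the satiety hormone of mammalian fat, and fish carry a pair of leptin genes that are expressed in several tissues. The normalized count of lepb was 1442, 1472 and 1496 in CTR, 258, 294 and 408 in AA and 305, 191 and 282 in IGF1, and the highest treated library stood at 408. The fold-change of lepb was −2.37 ± 0.14 on the log2 scale (adjusted p = 1.03e-08), and the difference between AA and IGF1, 0.19 ± 0.18 on the log2 scale, did not pass the test (adjusted p = 0.624). For lepa the values were 125, 306 and 245 in CTR, 80.4, 46 and 28.1 in AA and 19.8, 103 and 57.3 in IGF1, with a wider spread in CTR (log2 fold-change −2.07 ± 0.34, adjusted p = 0.000523). The suppressor cish, a target gene and inhibitor of the JAK-STAT route that leptin and growth hormone receptors use, was 22.5, 51.1 and 33.6 in CTR, 8.47, 8.79 and 14.1 in AA and 2.83, 5.70 and 13 in IGF1, and the kinase PIM3, a further target of that route, was 54.6, 56.2 and 65.4 in CTR, 10.6, 28.4 and 14.1 in AA and 20.6, 22.8 and 29.2 in IGF1. Both were called lower (log2 fold-change −2.01 ± 0.45, adjusted p = 0.00734 for cish and log2 fold-change −1.38 ± 0.31, adjusted p = 0.00775 for PIM3). Not called with 1 library left out were cish without CTR replicate 2 (log2 fold-change −1.68, adjusted p = 0.0848) and PIM3 without CTR replicate 3 (log2 fold-change −1.31, adjusted p = 0.0744). Over the 39 JAK-STAT genes, these were the 2 called members (1.33% of all genes were called members below CTR), 3 lay below (5.79% of all genes) and 1 above CTR (6.02%) without overlap, and the median was −0.06.

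**Figure D2:**
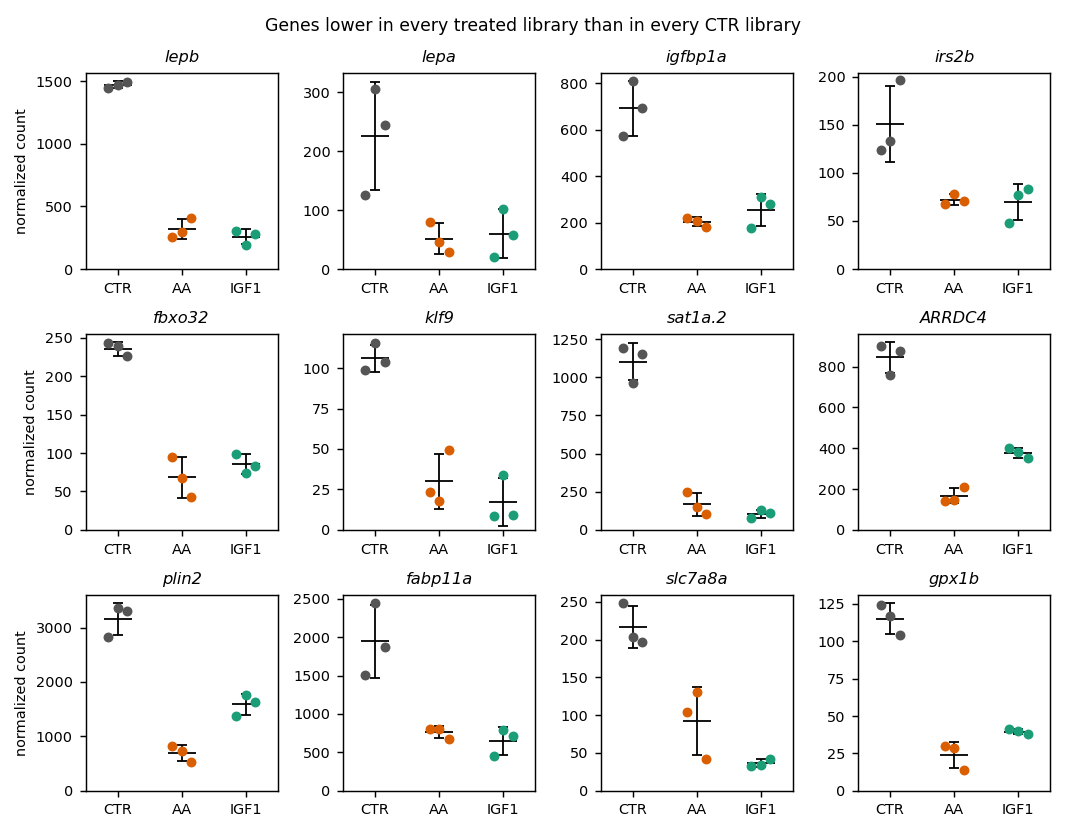
Normalized count (vertical axes, from 0) of 12 genes that were lower in all 6 treated libraries than in all 3 CTR libraries; points are libraries, horizontal marks group means and bars the standard deviation (n = 3). CTR of lepb spans 1442 to 1496 while its treated libraries span 191 to 408; ARRDC4 and plin2 are lower in AA than in IGF1, and slc7a8a is lower in IGF1 than in AA.

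The largest fall among called members with an informative symbol and a mean normalized count of 50 or more was that of sat1a.2, which encodes spermidine/spermine acetyltransferase, the enzyme that starts polyamine breakdown. Its normalized count was 1191, 964 and 1155 in CTR, 249.8, 148 and 105 in AA and 77.2, 128 and 109 in IGF1. That is a fall by 3.05 on the log2 scale (standard error 0.18, adjusted p = 1.03e-08), of −2.66 in AA and −3.44 in IGF1. A gene of the opposite step, odc1, which encodes ornithine decarboxylase, the rate-limiting enzyme of polyamine synthesis, rose from 7.95 ± 0.145 to 47.2 ± 16.7 in AA and 21.9 ± 2.56 in IGF1 (log2 fold-change 2.06 ± 0.40, adjusted p = 0.00223). The antizyme gene oaz2a, whose product inhibits ornithine decarboxylase, was a member below CTR (log2 fold-change −0.92 ± 0.15, adjusted p = 0.000603) and fell by less than 2-fold.

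Transcription factors of hormone response and the clock, and alpha-arrestins, held further falls. The normalized count of klf9, a Krüppel-like factor induced by glucocorticoids, was 98.8, 115 and 104 in CTR, 23.3, 17.6 and 49.2 in AA and 8.50, 34.2 and 9.19 in IGF1. It was called lower (log2 fold-change −2.62 ± 0.34, adjusted p = 7.26e-05), as were klf11a (log2 fold-change −1.21 ± 0.26, adjusted p = 0.00537), bhlhe41 (log2 fold-change −1.47 ± 0.22, adjusted p = 0.000288) and per2 (log2 fold-change −1.4 ± 0.31, adjusted p = 0.00568), of which bhlhe41 and per2 repress transcription in the circadian clock. In IGF1 alone bhlhe41 (−0.61) and per2 (−0.90) did not pass the adjusted p, and with AA and IGF1 as 1 treated group the calls of bhlhe41 (adjusted p = 0.134), per2 (adjusted p = 0.0691) and klf2a (adjusted p = 0.107) were lost. With 1 library left out, the call ended for per2 without CTR replicate 3 (log2 fold-change −1.24, adjusted p = 0.0768). In the list of Krüppel-like, circadian and hormone-response factors, 4 of 42 genes were called members below CTR (1.33% of all genes were). Above it was 1 (1.39% of all genes), klf2a (log2 fold-change 1.38 ± 0.41, adjusted p = 0.0422). Without overlap, 8 lay below (5.79% of all genes did) and 2 above (6.02%), and the median was −0.17. The call of klf2a held in only 2 of these 9 fits, with adjusted p from 0.0532 to 0.185 in the fits that lost it, which were those without AA replicate 2, CTR replicate 1, CTR replicate 2, CTR replicate 3, IGF1 replicate 1, IGF1 replicate 2 or IGF1 replicate 3. The alpha-arrestin ARRDC4, which promotes the removal of glucose transporters from the membrane, was 901, 761 and 875 in CTR, 144, 148 and 211 in AA and 402, 382 and 351 in IGF1 and fell more in AA than in IGF1 (log2 fold-change −1.8 ± 0.13, adjusted p = 6.02e-08). Its paralogue txnipa fell by less than 2-fold (log2 fold-change −0.61 ± 0.082, adjusted p = 8.91e-05). The repressor hbp1, a FoxO target that slows the cell cycle, was 488, 401 and 462 in CTR, 303, 275 and 155 in AA and 163, 157 and 167 in IGF1 (log2 fold-change −1.14 ± 0.16, adjusted p = 0.000122). The list of alpha-arrestins and starvation-linked genes joins several functions and was written with earlier results of these data known, so its shares carry no test. Of its 35 genes, 10 lay below CTR without overlap (5.79% of all genes did) and 1 above (6.02%). Of these, 4 and 1 were called (1.33% and 1.39% of all genes), each of them in all 9 fits, and the median was −0.31. That list also holds cemip, which encodes a hyaluronan-degrading protein (149, 134 and 155 in CTR, 50.8, 54.1 and 14.1 in AA and 4.96, 22.8 and 16.8 in IGF1), with a fold-change of −2.53 ± 0.30 on the log2 scale (adjusted p = 2.75e-05).

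Other large falls came from several functions. The transcript of wdr62, a centrosome and spindle scaffold, was 1058, 889 and 1103 in CTR, 305, 252 and 189.8 in AA and 309, 368 and 384 in IGF1 (log2 fold-change −1.76 ± 0.13, adjusted p = 1.59e-07). The phosphatase gene ctdsp2 fell from 194 ± 18.8 to 44.9 ± 22.1 in AA and 37.4 ± 19.7 in IGF1 (log2 fold-change −2.33 ± 0.26, adjusted p = 1.00e-05). The amino acid transporter slc7a8a, which carries large neutral amino acids, was 248, 204 and 197 in CTR, 104, 131 and 42.2 in AA and 32.6, 34.2 and 42.2 in IGF1, lower in IGF1 than in AA (log2 fold-change −1.79 ± 0.22, adjusted p = 3.58e-05). The glutathione peroxidase gpx1b fell from 115 ± 10.4 to 24 ± 8.66 and 39.6 ± 1.69 in AA and IGF1 (log2 fold-change −1.82 ± 0.24, adjusted p = 6.41e-05), the interferon regulatory factor irf7 from 126 ± 10.5 to 31.5 ± 23.9 and 47.7 ± 24.1 (log2 fold-change −1.77 ± 0.31, adjusted p = 0.00108), and cobll1a, an actin-binding repeat protein, from 159.6 ± 21.8 to 53.5 ± 51 and 36 ± 8.25 (log2 fold-change −1.7 ± 0.31, adjusted p = 0.00149). For cobll1a, AA replicate 3 held no read.

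Named genes of the lipid droplet fell while several of lipid and sterol synthesis rose. Perilipin 2 (plin2), the coat protein of lipid droplets, was 2819, 3352 and 3303 in CTR, 817, 728 and 534 in AA and 1380.4, 1764 and 1628 in IGF1. Every AA library lay below every IGF1 library and every IGF1 library below CTR (log2 fold-change −1.58 ± 0.12, adjusted p = 1.59e-07). ABHD5, the activator of droplet lipolysis, fell from 90.7 ± 23 to 33.5 ± 19.7 in AA and 41.8 ± 13.4 in IGF1 (log2 fold-change −1.48 ± 0.29, adjusted p = 0.00271). The fatty acid binding protein fabp11a, a fat cell marker, was 1514, 2449.9 and 1869 in CTR, 811, 808 and 675 in AA and 446, 792 and 709 in IGF1 (log2 fold-change −1.47 ± 0.16, adjusted p = 8.20e-06), while lpl, the lipoprotein lipase, was a member above CTR that did not reach 2-fold (log2 fold-change 0.96 ± 0.27, adjusted p = 0.0310). The adipocyte marker sum given above, which includes lpl and is mostly fabp11a itself, was lower in the same libraries. It is therefore no separate measure, and the part of fat cells in these falls was not tested.

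ATP-citrate lyase (aclya), which makes cytosolic acetyl-CoA for lipid synthesis, had the largest fold-change of the genes named here. Its normalized count was 1.61, 1.46 and 0.354 in CTR, 69.8, 39.9 and 70.3 in AA and 14.9, 11.4 and 4.40 in IGF1, and CTR held 2, 2 and 1 raw reads, so that the size of the fold (log2 fold-change 4.47 ± 0.70, adjusted p = 0.000377) rests on few reads. The rate-limiting enzyme of sterol synthesis, hmgcra, was 90.8, 45.3 and 66.5 in CTR, 315, 191 and 169 in AA and 176, 168 and 100.1 in IGF1 (log2 fold-change 1.43 ± 0.26, adjusted p = 0.00141), the last enzyme of cholesterol synthesis, dhcr7, rose from 37.1 ± 8.41 to 118 ± 37.7 in AA and 72.4 ± 18.6 in IGF1 (log2 fold-change 1.33 ± 0.28, adjusted p = 0.00482), and mid1ip1b, an activator of acetyl-CoA carboxylase, from 90.8 ± 16.2 to 206 ± 16.9 and 168 ± 28 (log2 fold-change 1.02 ± 0.18, adjusted p = 0.00124). Among the fits without 1 library, the call failed for dhcr7 without CTR replicate 3 (log2 fold-change 1.16, adjusted p = 0.0615) and mid1ip1b without CTR replicate 1 (log2 fold-change 0.89, adjusted p = 0.0115) and without IGF1 replicate 1 (log2 fold-change 0.98, adjusted p = 0.00422). Against that direction, gpam, the first enzyme of glycerolipid synthesis, was lower: 831, 1011 and 1028 in CTR, 609.5, 816 and 738 in AA and 135, 142 and 221 in IGF1. Its fall (log2 fold-change −1.45 ± 0.15, adjusted p = 4.29e-06) came mostly from IGF1, at −2.48, against −0.42 in AA, which did not pass the adjusted p by itself. With AA and IGF1 as 1 treated group gpam was not called (adjusted p = 0.214). Of the 43 genes of fatty acid and sterol synthesis, 6 were called members above CTR (1.39% of all genes were), of which 2 kept the call in all 9 fits, and 1 below (1.33%). The median was 0.60, of 1.04 in AA and 0.215 in IGF1. The list's summed normalized count was 4938 to 5796 in CTR, 6088 to 8671 in AA and 4381.5 to 5678 in IGF1, so that only AA lay apart from CTR. In the list of fatty acid oxidation and fuel switch genes, 2 of 42 were called members, plin2 and ABHD5, both lower (1.33% of all genes were), and the median was −0.02. Of 43 genes of glycolysis and glucose uptake, 1 was a called member (2.72% of all genes were, either way). It was pfkfb4b, a regulator of glycolytic flux, which fell from 510.1 ± 31.6 to 126 ± 70.3 and 274 ± 20.7 (log2 fold-change −1.39 ± 0.18, adjusted p = 6.42e-05). Without overlap, 6 of the glycolysis list lay above (6.02% of all genes did) and 2 below CTR (5.79%). Its median was −0.14 in AA and 0.41 in IGF1. The summed normalized count was 27702 to 32907 in CTR, 23938 to 30335 in AA and 39017 to 42002 in IGF1, so that only IGF1 lay apart from CTR. The pentose phosphate enzymes pgd (log2 fold-change 0.80 ± 0.12, adjusted p = 0.000246) and tktb (log2 fold-change 0.46 ± 0.10, adjusted p = 0.00408) were members above CTR that passed the test and stayed under 2-fold.

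Of the 12 largest rises among genes with an informative symbol and a mean normalized count of 50 or more, 5 were of genes for extracellular matrix proteins (abi3bpb, col10a1a, cilp, HAPLN1 and postnb). The normalized count of abi3bpb was 51.4, 84 and 66.5 in CTR, 368, 813 and 626 in AA and 357, 285 and 303 in IGF1 (log2 fold-change 2.7 ± 0.23, adjusted p = 4.95e-07). Endosialin (cd248b), a surface receptor of fibroblasts and pericytes, was 28.1, 12.4 and 11.3 in CTR, 154, 96 and 70.3 in AA and 154, 62.7 and 71.5 in IGF1 (log2 fold-change 2.65 ± 0.39, adjusted p = 0.000206). The type X collagen gene col10a1a was 31.3, 62.1 and 175 in CTR, 258, 992 and 415 in AA and 465, 447 and 502 in IGF1, with a wide spread within CTR and AA (log2 fold-change 2.48 ± 0.42, adjusted p = 0.000638). The intermediate layer protein of cartilage, cilp, was 1741, 989.9 and 1162 in CTR, 8085, 5419.7 and 5076 in AA and 5765, 2964 and 2986 in IGF1, and in each group replicate 1 held the highest level. Its fold-change was 1.92 ± 0.23 on the log2 scale (adjusted p = 2.47e-05). HAPLN1, the link protein that ties hyaluronan to proteoglycans, was 275, 191 and 159 in CTR, 1073, 776 and 794 in AA and 1044, 522 and 617 in IGF1 (log2 fold-change 1.96 ± 0.22, adjusted p = 1.26e-05), and postnb, periostin, was 228, 96.4 and 93.4 in CTR, 656, 906 and 837 in AA and 522, 259 and 294 in IGF1 (log2 fold-change 1.97 ± 0.27, adjusted p = 0.000123). As for cilp, replicate 1 was the highest library of each group for cd248b and HAPLN1, but not for abi3bpb, postnb or col10a1a. It was so too for ogna, hpdb, hmgcra and dhcr7. The part of a shared culture or batch in this pattern was not tested.

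The 79 genes of collagen, its folding enzymes and matrix had a median of 0.24, of 0.07 in AA and 0.30 in IGF1. Between AA and IGF1, 38 of the 79 differed (9.04% of all genes did). Their summed normalized count was 483030 to 502380 in CTR, 471190 to 518400 in AA and 600060 to 660930 in IGF1, so that only IGF1 lay apart from CTR. Without overlap, 14 lay above (6.02% of all genes did) and 4 below CTR (5.79%). Of these, 6 above (1.39% of all genes) and 1 below (1.33%) were called. The 4 that kept the call in all 9 fits were postnb, tnc (log2 fold-change 1.82 ± 0.35, adjusted p = 0.00199), ognb (log2 fold-change 1.26 ± 0.22, adjusted p = 0.000902) and col18a1a (log2 fold-change 1.32 ± 0.27, adjusted p = 0.00389). The tenascin tnc, the small leucine-rich proteoglycan osteoglycin of ognb and the basement membrane collagen of col18a1a are all secreted matrix proteins. The other called rises were ogna (log2 fold-change 1.06 ± 0.19, adjusted p = 0.000897) and nid1b (log2 fold-change 1.1 ± 0.19, adjusted p = 0.000803), and the call lower was fbn2a, a fibrillin (log2 fold-change −1.11 ± 0.33, adjusted p = 0.0404). Among the fits without 1 library, the call failed for ogna without AA replicate 1 (log2 fold-change 0.95, adjusted p = 0.00173) and without CTR replicate 3 (log2 fold-change 0.87, adjusted p = 0.0138) and without IGF1 replicate 1 (log2 fold-change 0.96, adjusted p = 0.00148) and nid1b without AA replicate 2 (log2 fold-change 0.95, adjusted p = 0.00380). The call of fbn2a held in 3 of the 9 fits and was lost without AA replicate 2, CTR replicate 1, CTR replicate 2, CTR replicate 3, IGF1 replicate 1 or IGF1 replicate 3, with adjusted p from 0.0603 to 0.184 there, and it was lost with AA and IGF1 as 1 treated group (adjusted p = 0.121). The collagen VI chains col6a1 (log2 fold-change 0.53 ± 0.077, adjusted p = 0.000181) and col6a2 (log2 fold-change 0.74 ± 0.082, adjusted p = 1.03e-05), the collagen chaperone serpinh1a (log2 fold-change 0.89 ± 0.10, adjusted p = 1.85e-05) and sparc (log2 fold-change 0.36 ± 0.074, adjusted p = 0.00340) were members above CTR that passed the test below 2-fold. Of the 9 fibroblast marker genes, postnb and pdgfra lay above CTR in all treated libraries and fbln1 below. The periostin paralogue postna was 1729, 2087 and 1844 in CTR, lower in AA (1244, 1721 and 1413) and higher in IGF1 (4011, 3397 and 3005). The part of a change in fibroblast number in the matrix genes was not tested.

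**Figure D3:**
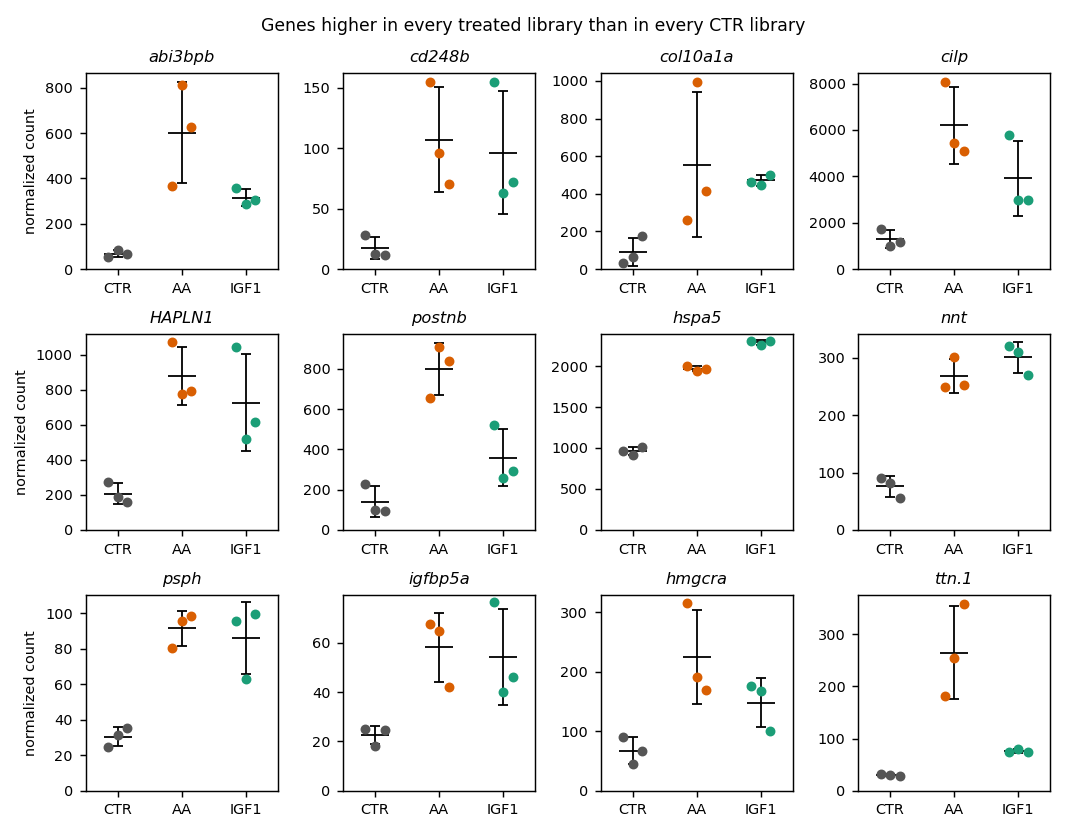
Normalized count (vertical axes, from 0) of 12 genes that were higher in all 6 treated libraries than in all 3 CTR libraries; points are libraries, horizontal marks group means and bars the standard deviation (n = 3). The chaperone gene hspa5 spans 917 to 1012 in CTR and 1940 to 2309 in the treated libraries, while col10a1a and cd248b vary several-fold within a group.

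Among the other large rises, nnt, the mitochondrial transhydrogenase that makes NADPH, was 90.8, 82.5 and 55.9 in CTR, 249.8, 302 and 253 in AA and 321, 311 and 269.8 in IGF1, and its AA and IGF1 values overlapped (log2 fold-change 1.92 ± 0.19, adjusted p = 2.60e-06). The chromatin protein gene hp1bp3 was 31.3, 31.4 and 29 in CTR, 205, 197 and 189.8 in AA and 85, 88.3 and 68.1 in IGF1, the nuclear import receptor kpna2 was 6.43, 12.4 and 12.7 in CTR, 138, 128 and 211 in AA and 29.1, 14.2 and 23.6 in IGF1, and both were higher in AA than in IGF1 in every library (log2 fold-change 2.03 ± 0.22, adjusted p = 8.68e-06 for hp1bp3 and log2 fold-change 2.46 ± 0.34, adjusted p = 0.000112 for kpna2). The secreted protein gene ccdc3b rose from 17 ± 8.50 to 106 ± 9.57 and 58.7 ± 40.6 (log2 fold-change 2.29 ± 0.40, adjusted p = 0.000873), and hpdb, an enzyme of tyrosine breakdown, from 27.6 ± 7.02 to 68.5 ± 23.2 in AA and 132 ± 56.3 in IGF1 (log2 fold-change 1.82 ± 0.32, adjusted p = 0.000858). The immediate early factor egr1 rose from 35.7 ± 6.71 to 178 ± 35.6 and 68.9 ± 26.9 (log2 fold-change 1.63 ± 0.26, adjusted p = 0.000472). It was the 1 called member among 22 AP-1 and immediate early genes (2.72% of all genes were called members). Of that list, 1 gene passed the adjusted p above CTR and 4 below (623 and 697 of all 13162 genes), and the median was −0.11. Its summed normalized count was 3542 to 3777 in CTR, 3001 to 3571.5 in AA and 2939 to 3120 in IGF1.

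Genes of protein folding, the proteasome and amino acid activation that rose did so mostly by less than 2-fold. The endoplasmic reticulum chaperone hspa5 was 958, 917 and 1012 in CTR, 1998, 1939.6 and 1962 in AA and 2304, 2251 and 2309 in IGF1 (log2 fold-change 1.13 ± 0.10, adjusted p = 6.82e-07). Further reticulum proteins lay above CTR in all treated libraries and passed the test below 2-fold, with log2 fold-change 0.93 ± 0.16, adjusted p = 0.000806 for the disulfide isomerase pdia4, log2 fold-change 0.85 ± 0.15, adjusted p = 0.0012 for the lectin chaperone canx and log2 fold-change 0.57 ± 0.12, adjusted p = 0.00450 for the chaperone hyou1. In the redox and heat shock list, 13 of 45 genes lay above CTR without overlap (6.02% of all genes did) and 1 below (5.79%). The adjusted p was passed by 14 above CTR and 1 below, against 623 and 697 of all 13162 genes. In each direction 1 was a called member (1.39% and 1.33% of all genes), hspa5 and gpx1b. Of 31 proteasome subunit genes, 12 lay above CTR without overlap (6.02% of all genes did) and 0 below. None of them was called at 2-fold, and 11 of the 31 passed an adjusted p of 0.05 above CTR (623 of all 13162 genes did). The largest was psma3 (log2 fold-change 0.96 ± 0.15, adjusted p = 0.000416). The median of the proteasome list was 0.36. Of 20 aminoacyl-tRNA synthetase genes, 8 lay above CTR without overlap (6.02% of all genes did) and 0 below (5.79%). At 2-fold 0 were called, and 9 passed the adjusted p above CTR (623 of all 13162 genes did). The threonyl-tRNA and methionyl-tRNA synthetases tars (log2 fold-change 0.99 ± 0.17, adjusted p = 0.000757) and mars (log2 fold-change 0.92 ± 0.16, adjusted p = 0.000890) had the highest fold-changes of these 8. The list's median was 0.02 in AA and 0.66 in IGF1, and 15 of the 20 genes differed between AA and IGF1 (9.04% of all genes did). Its summed normalized count was 18328 to 18903 in CTR, 16191 to 16589 in AA and 27242 to 28211 in IGF1. By the sum, AA lay below CTR and IGF1 above it.

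Among the genes that ATF4 controls in amino acid starvation, members lay on both sides of CTR. The serine synthesis enzyme psph was 24.9, 31.4 and 35.4 in CTR, 80.4, 95.4 and 98.4 in AA and 95.7, 62.7 and 99.5 in IGF1, called higher (log2 fold-change 1.53 ± 0.26, adjusted p = 0.000677). Transcription of the lipoprotein receptor vldlr was 14.5, 11.7 and 11.3 in CTR, 21.2, 40.6 and 28.1 in AA and 37.6, 34.2 and 47 in IGF1 (log2 fold-change 1.53 ± 0.37, adjusted p = 0.0116), a call that held in 5 of the 9 fits and was lost without AA replicate 2, CTR replicate 2, CTR replicate 3 or IGF1 replicate 3, with adjusted p from 0.0538 to 0.0935. The serine and proline enzymes shmt2 (log2 fold-change 0.82 ± 0.13, adjusted p = 0.000537) and pycr1b (log2 fold-change 0.79 ± 0.14, adjusted p = 0.00112) were members above CTR below 2-fold. The factor atf4a itself (log2 fold-change −0.57 ± 0.090, adjusted p = 0.000420), its target trib3 (log2 fold-change −0.60 ± 0.11, adjusted p = 0.00140) and the stress proteins nupr1a (log2 fold-change −0.59 ± 0.11, adjusted p = 0.00220) and nupr1b (log2 fold-change −0.96 ± 0.092, adjusted p = 1.65e-06) lay below CTR and passed the test below 2-fold. Of the 42 genes of that list, 5 lay above (6.02% of all genes did) and 5 below CTR (5.79%) without overlap, and 2 of those above were called (1.39% of all genes). The median was 0.19, of −0.10 in AA and 0.43 in IGF1, and 18 of the 42 genes differed between AA and IGF1 (9.04% of all genes did). The summed normalized count of the list was 22917 to 24177 in CTR, 16205 to 17700 in AA and 23634 to 25777 in IGF1, so that only the AA libraries lay apart from CTR by the sum.

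In the mTOR list, DDIT4L, an inhibitor of mTOR complex 1, was the 1 called member of 34 genes (1.39% of all genes were called members above CTR). It was 17.7, 22.6 and 17.7 in CTR, 76.2, 67 and 56.2 in AA and 51.7, 39.9 and 40.6 in IGF1, higher in the treated libraries (log2 fold-change 1.51 ± 0.30, adjusted p = 0.00302). Another 6 genes of the list lay below CTR without overlap (5.79% of all genes did), among them tsc1b, which restrains mTOR (log2 fold-change −0.73 ± 0.17, adjusted p = 0.00860), and the Rag GTPase rraga, which recruits it to the lysosome (log2 fold-change −0.51 ± 0.11, adjusted p = 0.00570), both below 2-fold. Of 64 autophagy and lysosome genes, 10 lay below (5.79% of all genes did) and 2 above CTR (6.02%) without overlap, 3 of those below were called (1.33% of all genes), and the median was −0.21. The mitophagy receptor bnip3 fell from 132 ± 16.3 to 67.1 ± 11.9 and 62.2 ± 3.06 (log2 fold-change −1.05 ± 0.20, adjusted p = 0.00220), its paralogue bnip3lb from 83.4 ± 6.22 to 31.1 ± 15.2 and 31.7 ± 11.1 (log2 fold-change −1.24 ± 0.28, adjusted p = 0.0069), and tfeb, the lysosomal master regulator, from 142 ± 19.6 to 30.2 ± 30.7 and 98.2 ± 18.7 (log2 fold-change −1.29 ± 0.29, adjusted p = 0.00651). Not called with 1 library left out were bnip3 without AA replicate 2 (log2 fold-change −0.98, adjusted p = 0.00991) and without CTR replicate 1 (log2 fold-change −0.95, adjusted p = 0.0221) and tfeb without CTR replicate 3 (log2 fold-change −1.2, adjusted p = 0.0664). With AA and IGF1 as 1 treated group tfeb was not called (adjusted p = 0.213). In IGF1 alone tfeb did not pass the adjusted p of the edgeR fit (log2 fold-change −0.58, adjusted p = 0.385). The gene tfeb stood closest to the limit of the rule, with 119.7 in IGF1 replicate 2 against 120.5 in CTR replicate 1, and 0 reads in AA replicate 3. Just outside it lay tnni2b.1, with 42.5 in its lowest treated library against 43.1 in the highest CTR library, and tbrg1, with 319.2 in its highest treated library against 314.9 in the lowest CTR library.

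The muscle genes that were called higher stood higher in AA than in IGF1. The titin gene ttn.1, the molecular spring of the sarcomere, was 32.1, 30.7 and 28.3 in CTR, 182, 254 and 359 in AA and 74.4, 79.8 and 74.5 in IGF1, ordered CTR, IGF1, AA without overlap (log2 fold-change 2.19 ± 0.23, adjusted p = 7.36e-06), and ttn.2 rose from 146 ± 27.8 to 421 ± 65.4 in AA and 233 ± 24.1 in IGF1 (log2 fold-change 1.09 ± 0.17, adjusted p = 0.000280). The call of marcksb, a membrane-bound regulator of actin (log2 fold-change 1.47 ± 0.34, adjusted p = 0.00808), was also carried by AA, with 2.36 against 0.57 in IGF1. In IGF1 alone marcksb did not pass the adjusted p. Not called with 1 library left out were ttn.2 without CTR replicate 2 (log2 fold-change 0.99, adjusted p = 0.00471) and marcksb without CTR replicate 2 (log2 fold-change 1.26, adjusted p = 0.0662). The call of marcksb was also lost with AA and IGF1 as 1 treated group (adjusted p = 0.130), by limma, by thinning and by summed counts per name. The fusion protein gene mymk (log2 fold-change 0.98 ± 0.22, adjusted p = 0.00788) and the cadherin cdh15 (log2 fold-change 0.84 ± 0.19, adjusted p = 0.00837) were members above CTR that passed the test below 2-fold, and the satellite cell factor pax7b was a member below it (log2 fold-change −0.80 ± 0.19, adjusted p = 0.0119). Of 36 myogenic factor and fusion genes, 8 lay above (6.02% of all genes did) and 1 below CTR (5.79%) without overlap, with a median of 0.60. Of 37 sarcomere genes, 11 were called higher (2.13% of all genes were). Without overlap lay 2 above (6.02% of all genes did) and 2 below CTR (5.79%), which is near the share over all genes. The list medians were 1.31 in AA and 0.33 in IGF1. The sarcomere count fell to 6 without CTR replicate 2, 6 without CTR replicate 3, 7 without IGF1 replicate 3 and 2 with AA and IGF1 as 1 treated group. The summed normalized count of the sarcomere genes was 8657 to 9834 in CTR, 9327 to 12718 in AA and 6498 to 7800 in IGF1. By the sum every IGF1 library lay below every CTR library, although the list's median in IGF1 was above 0. The actin-binding tropomyosin tpm2 went the other way, 2804, 3279 and 3023 in CTR, 1327, 1455 and 942 in AA and 1547, 2112 and 1878 in IGF1, a fall that sat at the 2-fold limit (log2 fold-change −1.0 ± 0.13, adjusted p = 5.66e-05) and was no longer called without AA replicate 3, CTR replicate 2 or IGF1 replicate 1, nor with AA and IGF1 as 1 treated group. As tpm2 is abundant, its fall weighs heavily in the sarcomere sum. The smooth muscle genes acta2 (log2 fold-change −0.71 ± 0.094, adjusted p = 7.00e-05) and tagln (log2 fold-change −0.74 ± 0.095, adjusted p = 5.97e-05), which the marker list holds, fell with tpm2 by less than 2-fold, and their part in the result was not tested. Actin and tropomyosin genes have near-identical coding sequences, so their contigs may share reads. The contigs of ttn.1 and ttn.2, the 2 sarcomere genes above CTR without overlap, are isoforms of the same assembled gene. They may therefore not be separate results.

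Of 36 chromosome segregation genes, 10 were called members above CTR (1.39% of all genes were). Without overlap, 11 lay above CTR (6.02% of all genes did) and 0 below (5.79%), and the list's median was 1.60, of 2.34 in AA and 0.93 in IGF1. The topoisomerase gene top2a was 10.4, 7.30 and 4.24 in CTR, 88.9, 66.3 and 91.4 in AA and 29.8, 11.4 and 19.4 in IGF1, with every AA library above every IGF1 library (log2 fold-change 2.56 ± 0.43, adjusted p = 0.000633). The others that kept the call in all 9 fits were anln, a cytokinetic ring protein (log2 fold-change 1.57 ± 0.26, adjusted p = 0.000531), ncapd2, a condensin subunit (log2 fold-change 1.66 ± 0.36, adjusted p = 0.00489), and kif20a, a kinesin of cytokinesis (log2 fold-change 2.19 ± 0.49, adjusted p = 0.00682). The kinesin kif23 rose from 10.2 ± 7.36 to 62.7 ± 28.8 and 32.8 ± 7.02 (log2 fold-change 2.13 ± 0.46, adjusted p = 0.00486). Of 41 cell cycle and DNA replication genes, 4 were called members above CTR (1.39% of all genes were) and 0 below (1.33%), with a median of 0.57. Thymidine kinase (tk1), which salvages thymidine for DNA, was 3.21, 2.92 and 2.12 in CTR, 59.3, 35.2 and 63.3 in AA and 28.3, 5.70 and 11.4 in IGF1 (log2 fold-change 3.39 ± 0.58, adjusted p = 0.000718), and rrm2, the regulatory subunit of ribonucleotide reductase, was 37.8, 32.9 and 43.9 in CTR, 197, 145 and 134 in AA and 101, 51.3 and 76.9 in IGF1 (log2 fold-change 1.55 ± 0.25, adjusted p = 0.000525). The cyclin ccna2 (log2 fold-change 1.76 ± 0.38, adjusted p = 0.00561) and the thymidylate synthase tyms (log2 fold-change 1.42 ± 0.41, adjusted p = 0.0341) were the other called members. Among the fits without 1 library, the call failed for kif23 without CTR replicate 3 (log2 fold-change 1.94, adjusted p = 0.0543) and ccna2 without CTR replicate 3 (log2 fold-change 1.67, adjusted p = 0.0534). The call of tyms held in 5 of the 9 fits and was lost without AA replicate 1, CTR replicate 2, CTR replicate 3 or IGF1 replicate 1, with adjusted p from 0.0595 to 0.171. The lamin gene lmnb2, in the chromatin list, rose from 5.94 ± 0.382 to 40.1 ± 13.7 and 20.7 ± 2.35 (log2 fold-change 2.26 ± 0.43, adjusted p = 0.00201). It was the 1 called member of 32 (2.72% of all genes were, either way). These genes have few reads: with every library thinned to the depth of AA replicate 3, 0 of the 36 segregation genes and 1 of the 41 cell cycle genes were called higher, and without CTR replicate 3 the list counts of called rises, 16 and 10 over all libraries, were 8 and 4, and without CTR replicate 2 they were 10 and 5. They were 3 and 2 with AA and IGF1 as 1 treated group, where anln (adjusted p = 0.0602), ncapd2 (adjusted p = 0.0651), ccna2 (adjusted p = 0.0642) and tyms (adjusted p = 0.0956) were not called. In IGF1 alone these genes did not pass the adjusted p of the edgeR fit either (0.199 for anln, 0.217 for ncapd2, 0.202 for ccna2 and 0.222 for tyms).

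Of 57 ribosome biogenesis genes, 9 lay above (6.02% of all genes did) and 1 below CTR (5.79%) without overlap. Called were 2 of those above (1.39% of all genes), mycn (log2 fold-change 1.51 ± 0.40, adjusted p = 0.0213) and rrp9 (log2 fold-change 1.11 ± 0.33, adjusted p = 0.0428). The call of mycn was lost without CTR replicate 1, CTR replicate 3, IGF1 replicate 1 or IGF1 replicate 3, with adjusted p from 0.0530 to 0.107, and that of rrp9 without AA replicate 2, CTR replicate 1, CTR replicate 2, CTR replicate 3, IGF1 replicate 1 or IGF1 replicate 3, with adjusted p from 0.0552 to 0.148. Neither was called with AA and IGF1 as 1 treated group (adjusted p = 0.0695 and adjusted p = 0.103). The nucleolar proteins npm1a (log2 fold-change 0.86 ± 0.16, adjusted p = 0.00139), fbl (log2 fold-change 0.79 ± 0.15, adjusted p = 0.00201) and nop58 (log2 fold-change 0.76 ± 0.16, adjusted p = 0.00514) were members above CTR below 2-fold. Of 72 cytosolic ribosomal protein genes, 0 were members in either direction and 0 passed the adjusted p of edgeR's test, 0 had an unadjusted p under 0.05, 0 passed the adjusted p of DESeq2, and the median was −0.03.

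**Figure D4:**
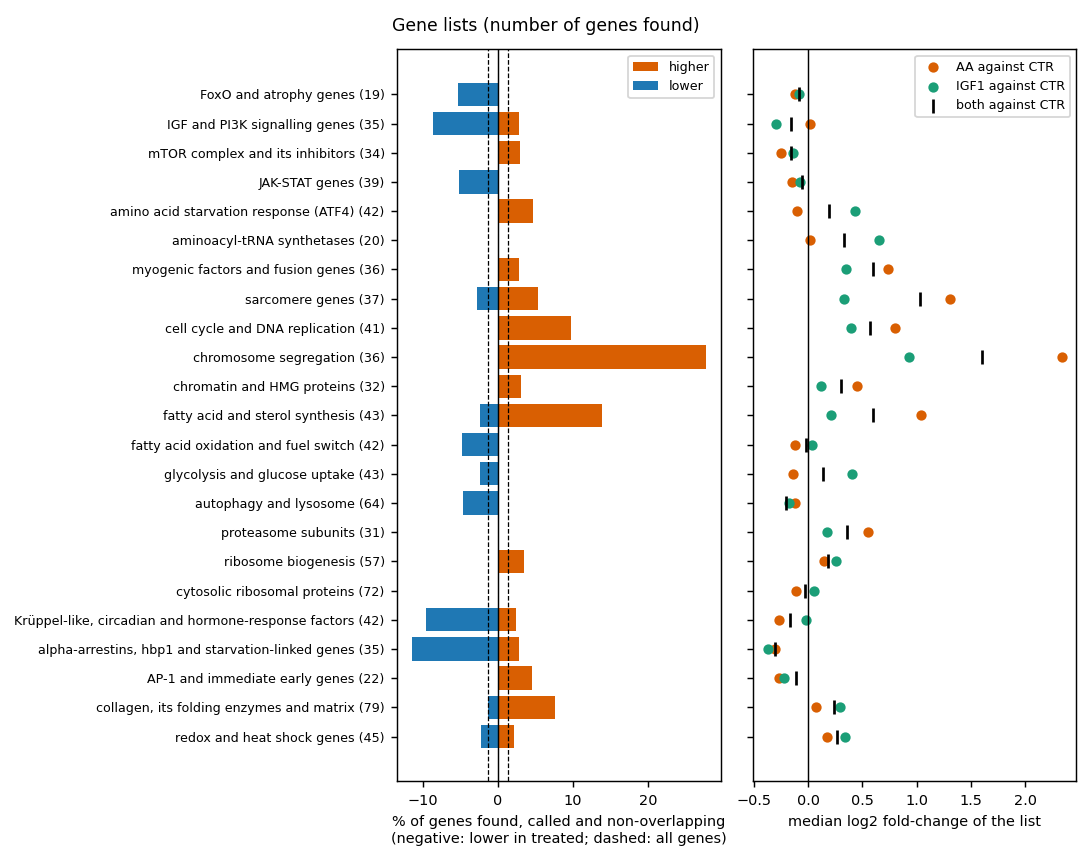
Left, the share of each list's genes (number found in brackets) that were called and without overlap higher (orange, right of 0) or lower (blue, left of 0) in the treated libraries; dashed lines give the 1.39% and 1.33% over all genes. Right, the list's median log2 fold-change in AA, IGF1 and both against CTR: chromosome segregation (2.34 and 0.93) and sarcomere genes (1.31 and 0.33) stand higher in AA, aminoacyl-tRNA synthetases higher in IGF1 (0.66 against 0.02).

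The rule required every AA and every IGF1 library to lie beyond all CTR libraries, on the same side. A call also asked for a mean change of both treatments of 2-fold or more. Both conditions limit which differences between AA and IGF1 can occur among called members. The shares and counts of differing members below are therefore a description and carry no test against all genes. No split by direction over all genes is given beside them. Of the 358 called members, 81 (22.6%) differed between AA and IGF1 at an adjusted p of 0.05 in the same fit, against 9.04% of all genes, which were not chosen for the size of their change. Among the 183 called rises 38 differed, 37 with the larger rise in AA and 1 in IGF1, and among the 175 called falls 43 differed, 25 with the larger fall in AA and 18 in IGF1. The median log2 fold-change of the called rises was 1.68 in AA and 1.19 in IGF1, and that of the called falls −1.5 in AA and −1.26 in IGF1, where AA and IGF1 share the CTR libraries. In 219 of the 358, each treatment by itself reached 2-fold. Of the 72 named genes, irs2a and gpam did not pass the adjusted p in AA alone. In IGF1 alone PIM3, odc1, dhcr7, kpna2, nid1b, mycn, rrp9, klf2a and fbn2a did not pass it. Nor did anln, ncapd2, ccna2, tyms, tfeb, bhlhe41, per2 and marcksb. Among the rises kpna2 differed most of the 12 largest (log2 fold-changes of 3.78 in AA and 1.14 in IGF1, adjusted p = 7.31e-05 for the difference), followed by ttn.1 (log2 fold-changes of 3.06 in AA and 1.33 in IGF1, adjusted p = 0.000142). Among the falls, cemip (log2 fold-changes of −1.65 in AA and −3.41 in IGF1, adjusted p = 0.0131) and slc7a8a (log2 fold-changes of −1.05 in AA and −2.52 in IGF1, adjusted p = 0.00295) were lower in IGF1, and ARRDC4 was lower in AA (log2 fold-changes of −2.43 in AA and −1.16 in IGF1, adjusted p = 5.74e-05). The named genes whose treatments were closest were ognb (log2 fold-changes of 1.26 in AA and 1.26 in IGF1), psph (log2 fold-changes of 1.54 in AA and 1.52 in IGF1) and lepa (log2 fold-changes of −2.05 in AA and −2.09 in IGF1), for which the differences between AA and IGF1 were −0.001 ± 0.24, 0.018 ± 0.29 and 0.046 ± 0.47. With standard errors of that size, differences above 2-fold could also go undetected. For tk1 the difference was 1.59 ± 0.54 on the log2 scale (adjusted p = 0.0796 in the same fit). For odc1 it was 1.17 ± 0.42 (adjusted p = 0.0983).

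**Figure D5:**
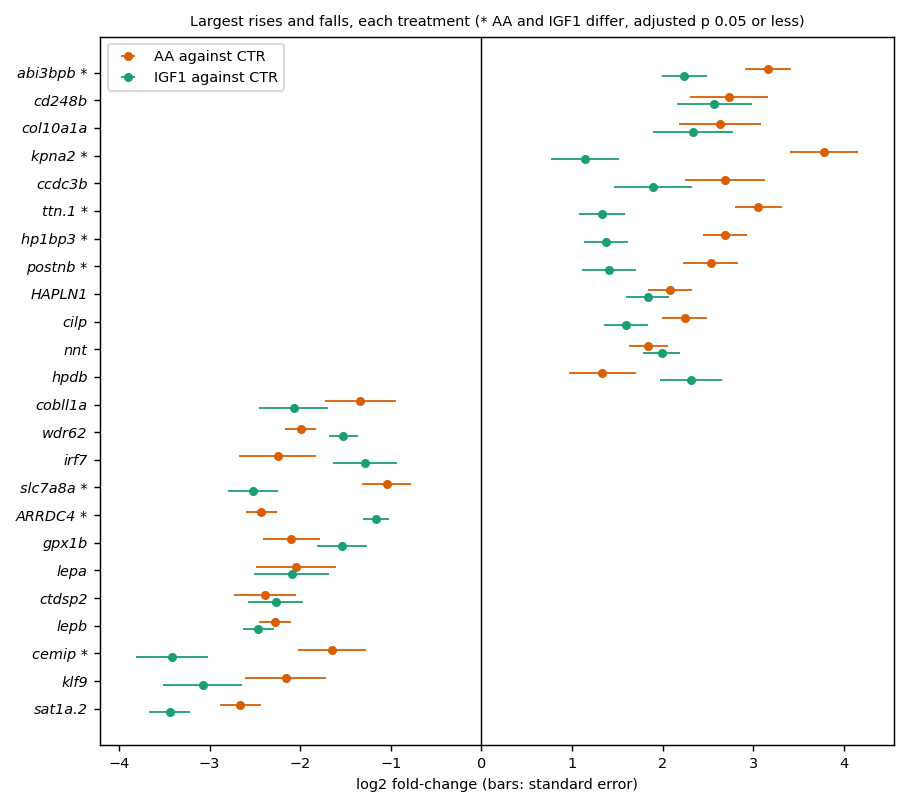
Log2 fold-change against CTR of AA (orange) and IGF1 (green), with its standard error, for the 12 largest rises and 12 largest falls among called members with an informative symbol and a mean normalized count of 50 or more; an asterisk marks genes for which AA and IGF1 differ at an adjusted p of 0.05 or less. Both treatments lie on the same side of 0 for all 24 genes, as the rule asked of their libraries, and 8 of them carry an asterisk.

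Of the 358 called members, 214 had more than 1 tested contig. In 178 of these at least 1 other contig was called in the same direction, in 120 all contigs were, and in 2 a contig was called in the opposite direction. Near-identical contigs of 1 gene can split its reads, so a level of 1 contig can be lower than that of the gene.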

How the data were processed

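Poly(A) RNA of pacu myotubes was sequenced from 9 stranded libraries (CTR, AA and IGF1, 3 each). The authors assembled a transcriptome with Trinity, named contigs by protein similarity to other fish, and aligned the reads with Bowtie2 after FastQC 0.11.8 and Trimmomatic. The tool that made the raw counts is not given in the sources used here. The deposited raw counts (whole reads per contig, 69932 contigs) were tested, and the deposited normalized counts, a signal that equals the raw counts divided by 1 median-of-ratios factor per library, gave the levels and the non-overlap rule. No reference sequence was used.

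The 35575 contigs whose raw counts averaged at least 10 were fitted with edgeR 4.0.16 in R 4.3.3 (TMM, 3 groups, all 9 libraries, quasi-likelihood F test, contrast of the AA and IGF1 mean with CTR, Benjamini-Hochberg adjustment). A gene is the contig with the highest mean normalized count under its name. The standard error is the absolute log2 fold-change divided by the square root of F. The script was tested on simulated data with known changes. Deviations of equally numbered libraries from their group means correlated at −0.04 to 0.12 between groups, and the libraries were not treated as pairs. Low correlations over all tested contigs cannot exclude a shared culture. For several named genes, among them cilp, cd248b, HAPLN1 and ogna, replicate 1 was the highest library in each group.

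Members and the 23 gene lists and 9 marker lists were chosen with earlier results of these data known. Named genes were the 12 largest called rises and falls among members with an informative symbol (no clone, identifier or description as the name) and a mean normalized count of 50 or more, up to 4 called members per list and direction, and fbxo32, myog, igfbp1a and igfbp5a; other genes given were chosen after their values were seen. Alternatives were DESeq2 1.42.0, limma 3.58.1 with a pseudocount of 1, other scalings, filters and gene summaries, thinning of all libraries to the shallowest (5 draws), a replicate block and each library left out. Library totals of 1366043 to 53525876 counts limit the precision, and errors cover the spread between cultures only.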

Additional observations from a re-analysis of the deposited data

Results flagged for a closer look

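Among the 72 named genes, 24 responded differently to AA and to IGF1 by the AA against IGF1 contrast of the edgeR fit (adjusted p of 0.05 or less over all contigs). Both treatments lay on the same side of CTR for them, which the rule required. Over all genes 9.04% differed, and most named genes were chosen for the size or p of their change. Each difference given below is the log2 fold-change in AA minus that in IGF1.

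Among genes that rose, the difference was 2.64 for kpna2 (adjusted p = 7.31e-05), 2.60 for aclya (0.00862), 1.87 for top2a (0.00949), 1.79 for marcksb (0.00476), 1.74 for anln (0.000632), 1.73 for ttn.1 (0.000142), 1.47 for ncapd2 (0.0232), 1.46 for ccna2 (0.0379), 1.31 for hp1bp3 (0.00122), 1.21 for egr1 (0.012), 1.117 for postnb (0.0204), 0.997 for rrm2 (0.0315), 0.92 for abi3bpb (0.0173), 0.84 for ttn.2 (0.00785) and 0.80 for nid1b (0.0231), in each case a larger rise in AA.

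Among genes that fell, the larger fall was in AA for bhlhe41 (−1.71, adjusted p = 0.0014), tfeb (−1.42, 0.0283), ARRDC4 (−1.27, 5.74e-05), plin2 (−1.18, 4.3e-05), pfkfb4b (−1.01, 0.0103) and tpm2 (−0.56, 0.031). It was in IGF1 for gpam (2.06, adjusted p = 1.81e-06), cemip (1.76, 0.0131) and slc7a8a (1.48, 0.00295). Groups of 3 libraries are too small for the search for single libraries that stand apart.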

How the results depend on the processing

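The log2 fold-changes of the 72 named genes kept their sign under every alternative that gave a value, and a mean normalized count of 50 or more left out the genes below it. Thinning all libraries to the shallowest cost 31 of their calls, AA and IGF1 as 1 treated group 15, limma 14, summed counts per name 6, no low-count filter 4, library size alone 3, the replicate block 2, and DESeq2, the newer edgeR method and median-of-ratios scaling 1 each.

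Genes called higher and lower numbered 281 and 224. With AA and IGF1 as 1 group they were 130 and 113 (contigs 251 and 308, called members below CTR 106). Thinned, 128 genes and 284 contigs were called higher and 424 contigs lower, 88 and 110 members were called, 474 and 460 genes did not overlap, and 37 members differed between AA and IGF1. Limma called 163 and 123 genes (contigs 327 and 320, members below CTR 107). A mean normalized count of 50 or more left 176 and 132 genes (contigs lower 367, members below CTR 105). Summed per name, 219 and 225 names were called in place of 560 and 652 contigs. The newer edgeR method, added after seeing the data, called 452 genes and 949 contigs higher. Without the 2-fold minimum, 623 and 697 genes and 1300 and 1965 contigs passed, with 419 and 457 members, of which 171 differed between AA and IGF1. DESeq2 called 350 and 220 genes, more rises than edgeR and slightly fewer falls.

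With each library left out in turn, genes called higher ranged from 167 to 331 and lower from 145 to 246, contigs higher from 343 to 686 and lower from 419 to 742, called members from 141 to 237 above and 123 to 196 below CTR, non-overlapping genes from 892 to 1148 above and 847 to 1141 below, a rule that is looser with fewer libraries, and members that differed between AA and IGF1 from 57 to 114.

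The fit with a replicate block called 268 genes higher and 235 lower, 170 and 175 members, and 91 members that differed between AA and IGF1. The sources do not state a pairing, and the deviations of equally numbered libraries correlated weakly, so the block was not used for the main values. That does not exclude a shared culture. The call was lost under it for klf2a and rrp9. Levels on the TMM scale, also added after seeing the data, gave 754 and 786 non-overlapping genes. Depth limits both directions: equal shallow depth cost more called rises than falls, and 36 called members below CTR had 0 reads in AA replicate 3.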

Other observations

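The genes below were chosen after their values were seen, lie in none of the 23 lists unless stated, and are given as values. Proline dehydrogenase, prodha, was 1.61, 5.11 and 6.72 in CTR, 29.6, 10.1 and 49.2 in AA and 39.7, 34.2 and 31.6 in IGF1 (log2 fold-change 2.56 ± 0.54, adjusted p = 0.00456), the tetrahydrobiopterin recycling enzyme qdpra rose from 51.4 ± 13 to 134 ± 39.4 in AA and 204 ± 40.1 in IGF1 (log2 fold-change 1.64 ± 0.24, adjusted p = 0.000159), and oat, ornithine aminotransferase, from 91.9 ± 10.1 to 181 ± 33.4 and 323 ± 18.4 (log2 fold-change 1.42 ± 0.17, adjusted p = 3.08e-05).

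The transferrin receptor tfr1b, the route of iron uptake, was 277, 213 and 269 in CTR, 737, 657 and 639.8 in AA and 607, 522 and 533 in IGF1 (log2 fold-change 1.27 ± 0.14, adjusted p = 7.51e-06), and its paralogue tfr1a moved alike (log2 fold-change 1.29 ± 0.14, adjusted p = 8.68e-06). Among immune genes that fell, the chemokine cxcl8a was 105, 120.5 and 72.8 in CTR, 38.1, 27.7 and 28.1 in AA and 47.5, 42.7 and 62.7 in IGF1 (log2 fold-change −1.29 ± 0.25, adjusted p = 0.00273), and the macrophage growth factor csf1a was 341, 229 and 292 in CTR, 108, 112 and 77.3 in AA and 125, 96.9 and 141 in IGF1 (log2 fold-change −1.33 ± 0.18, adjusted p = 7.83e-05). The macrophage mannose receptor gene mrc1b has a pair of entries. One was 337, 295 and 302 in CTR, 133, 126 and 98.4 in AA and 156, 148 and 123 in IGF1 and was called lower (log2 fold-change −1.24 ± 0.15, adjusted p = 4.20e-05), while the other, 322, 269 and 232 in CTR, 235, 162 and 162 in AA and 232, 265 and 188 in IGF1, overlapped and did not pass the test (log2 fold-change −0.42 ± 0.17, adjusted p = 0.133). The B cell adaptor blnk was 9.64, 20.4 and 16.3 in CTR, 4.23, 4.06 and 0 in AA and 2.83, 5.70 and 3.80 in IGF1 and called lower (log2 fold-change −2.04 ± 0.54, adjusted p = 0.0211), a call lost without AA replicate 2, CTR replicate 2, CTR replicate 3, IGF1 replicate 1 or IGF1 replicate 3, with adjusted p up to 0.120. PTPRC, a marker of all leukocytes, was 0 to 22.8 over the 9 libraries and did not pass the test (adjusted p = 0.507). The part of any leukocytes in these levels was not tested.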
